A study of Mus musculus with 12 samples.

Results

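Sycn, Clps, Cela1 and Spink1 are genes of the pancreatic zymogen granule and its secretions that were also bright on colon arrays of untreated mice. They are 4 of the 11933 genes that could be tested, and they were chosen for their function and for their level on the control arrays of these same data, with no fixed level as a limit. Their level on the control arrays is therefore a description, and so are their differences from control, which are given with standard errors and without p-values. Counts of members that a model called against control are shaped by the same choice, and nothing is read from them. Cpa1 and Ctrb1, enzyme genes of the same secretion that were near background on most control arrays, serve as the comparison. Amy2a5, pancreatic amylase, was not chosen, although it measured 12.30, 9.17 and 8.15 on the control arrays on the log2 scale used below.

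Colon RNA of male mice aged 7 to 8 weeks was read on 12 Illumina bead arrays, 3 in each of 4 groups. The groups are DAPP before DSS, DAPP during DSS, DSS alone and control. DSS is dextran sulfate sodium, which injures the colon lining and induces colitis, and all groups but control received it. DAPP is known here only by that abbreviation, in a series on polyphenols of apple peel. Array names hold a number without a unit, 200 where DAPP came before DSS and 400 where it came during DSS, so timing and that number differ together. The sources used here give no strain, no vehicle for the control mice and no segment of colon. Samples of a group are called biological replicates in the labels, and p-values measure the spread between them. A level is a normalised log2 intensity, on which a difference of 1 is a doubling, and the highest level of any probe was 15.09. Before normalisation the mean signal was 601 to 728 on the DAPP arrays, against 433 to 507 on those of DSS and control. The arrays detected 17650 to 21444 probes, and replicate 1 of DAPP before DSS correlated least with the rest over genes (0.828 to 0.914, against 0.916 to 0.984 for all other pairs).

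Acinar cells of the exocrine pancreas store digestive enzymes as inactive zymogens in secretory granules and release them toward the gut lumen, where trypsin activates them. Syncollin (Sycn) is a protein of the zymogen granule membrane, colipase (Clps) holds pancreatic lipase on fat droplets in the presence of bile salts, Cela1 is a chymotrypsin-like elastase, and Spink1 inhibits trypsin that is activated too early. All are best known from the pancreas rather than the colon. Carboxypeptidase A1 (Cpa1) and chymotrypsinogen B1 (Ctrb1) are among the most abundant acinar zymogens.

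Promoter sequences of RefSeq (mouse assembly GRCm38.p6), which run from 250 bases before to 50 bases after the start of the gene, are shown for 2 of the 4 members, Sycn and Cela1, matched by symbol, and for both comparison genes. They are set side by side because all are acinar genes, yet of these only Sycn and Cela1 were bright on every control array. Sycn lies on the plus strand at chr7:28540635-28540934, Cela1 on the minus strand at chr15:100687871-100688170, Cpa1 on the plus strand at chr6:30638968-30639267 and Ctrb1 on the minus strand at chr8:111690961-111691260. Capitals mark matches, on either strand, to the letters CACCTG and TTTCCC, which resemble core letters bound by the acinar PTF1 complex, and to TATAAA and TTTATG, forms of a TATA-like box. The sequences are given 5′ to 3′ on the strand of the gene.
Sycn: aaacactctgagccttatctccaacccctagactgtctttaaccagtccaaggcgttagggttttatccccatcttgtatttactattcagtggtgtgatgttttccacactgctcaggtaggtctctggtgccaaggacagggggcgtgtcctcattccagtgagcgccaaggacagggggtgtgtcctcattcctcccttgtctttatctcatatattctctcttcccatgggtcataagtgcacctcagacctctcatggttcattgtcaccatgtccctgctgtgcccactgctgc
Cela1: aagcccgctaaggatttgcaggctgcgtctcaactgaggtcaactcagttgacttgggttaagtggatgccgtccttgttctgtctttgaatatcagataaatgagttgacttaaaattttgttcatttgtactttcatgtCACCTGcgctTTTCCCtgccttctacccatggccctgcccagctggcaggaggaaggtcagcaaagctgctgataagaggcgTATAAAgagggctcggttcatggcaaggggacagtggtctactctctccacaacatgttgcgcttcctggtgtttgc
Cpa1: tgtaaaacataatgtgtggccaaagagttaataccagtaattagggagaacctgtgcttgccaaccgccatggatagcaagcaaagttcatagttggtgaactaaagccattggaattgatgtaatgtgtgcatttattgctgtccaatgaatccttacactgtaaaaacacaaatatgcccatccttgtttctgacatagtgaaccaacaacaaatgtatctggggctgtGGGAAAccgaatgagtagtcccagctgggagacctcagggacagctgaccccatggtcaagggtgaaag
Ctrb1: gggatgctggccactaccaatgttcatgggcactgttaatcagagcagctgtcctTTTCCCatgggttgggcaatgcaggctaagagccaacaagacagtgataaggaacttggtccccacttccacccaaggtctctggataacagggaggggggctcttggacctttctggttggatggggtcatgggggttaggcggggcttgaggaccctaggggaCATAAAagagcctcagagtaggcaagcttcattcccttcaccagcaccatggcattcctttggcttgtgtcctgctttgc
The Cela1 window held CACCTG at -109, TTTCCC at -99 and TATAAA at -27, counted from the start site. The Ctrb1 window held TTTCCC at -195 and TTTATG on the other strand at -30, and the Cpa1 window held TTTCCC on the other strand at -19. The Sycn window held none of these letters, which says nothing about the factors that act on it. Among 32817 promoters of the same length, 20.2% held CACCTG, 25.2% TTTCCC, 13.6% TATAAA, 11.9% TTTATG and 4.86% both CACCTG and TTTCCC, so each match is common and is a description, not a site.

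All 4 members passed the filter on low values, and their 6 probes are accounted for as follows. Sycn and Spink1 are read by 1 probe each and Clps by 2, all detected on 12 of 12 arrays. Cela1 is read by 1 probe detected on 12 arrays and by a further probe, designed to another transcript record, that was detected on 1 of 12 arrays, lay between 4.53 and 5.67 and did not pass.

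Sycn was the member that separated the control arrays from every other array. Its level was 12.40, 11.73 and 11.81 on the arrays of DAPP before DSS, 10.67, 10.94 and 13.19 on those of DAPP during DSS, 9.29, 11.98 and 13.17 on those of DSS, and 14.18, 14.23 and 14.47 on those of control. All 9 arrays from DSS-treated mice thus lay below all 3 control arrays, with DSS replicate 1 the lowest and replicate 3 of both DSS and DAPP during DSS the nearest to control. The mean was 11.98 ± 0.37 in DAPP before DSS, 11.60 ± 1.38 in DAPP during DSS, 11.48 ± 1.99 in DSS and 14.29 ± 0.15 in control (mean ± SD of 3 arrays). Relative to control, Sycn was 4.95-fold lower in DAPP before DSS (log2 difference -2.31 ± 0.83, SE), 6.47-fold lower in DAPP during DSS (-2.69 ± 0.83) and 7.02-fold lower in DSS (-2.81 ± 0.83). Single arrays moved these values: the log2 difference in DSS was -1.72 without DSS replicate 1 and -3.66 without DSS replicate 3, and that in DAPP during DSS was -3.49 without its replicate 3. The control levels of Sycn lay within 1 log2 unit of the highest level on the arrays, and whether saturation lowered them was not tested. Sycn was the only member with this complete separation on all 9 arrays, a pattern that 1020 of 11933 genes (8.55%) shared. In tissue RNA of this kind, fewer cells of a type and less RNA per cell cannot be told apart. Other tissue markers separated the same arrays: the mean level of 8 smooth muscle genes ran from 10.27 to 10.76 in DAPP before DSS, 10.12 to 10.68 in DAPP during DSS and 9.89 to 10.44 in DSS, against 11.48 to 11.65 in control. In that order of groups, 6 of 8, 6 of 8 and 7 of 8 of these genes fell by limma. The mean of 6 distal colon position genes was 6.96 to 7.07 in DAPP before DSS, 7.19 to 7.32 in DAPP during DSS and 6.86 to 7.62 in DSS, against 7.86 to 8.45 in control, with 2 of 6, 1 of 6 and 1 of 6 called lower, and the part of either in the Sycn result was not tested.

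**Figure D1:**
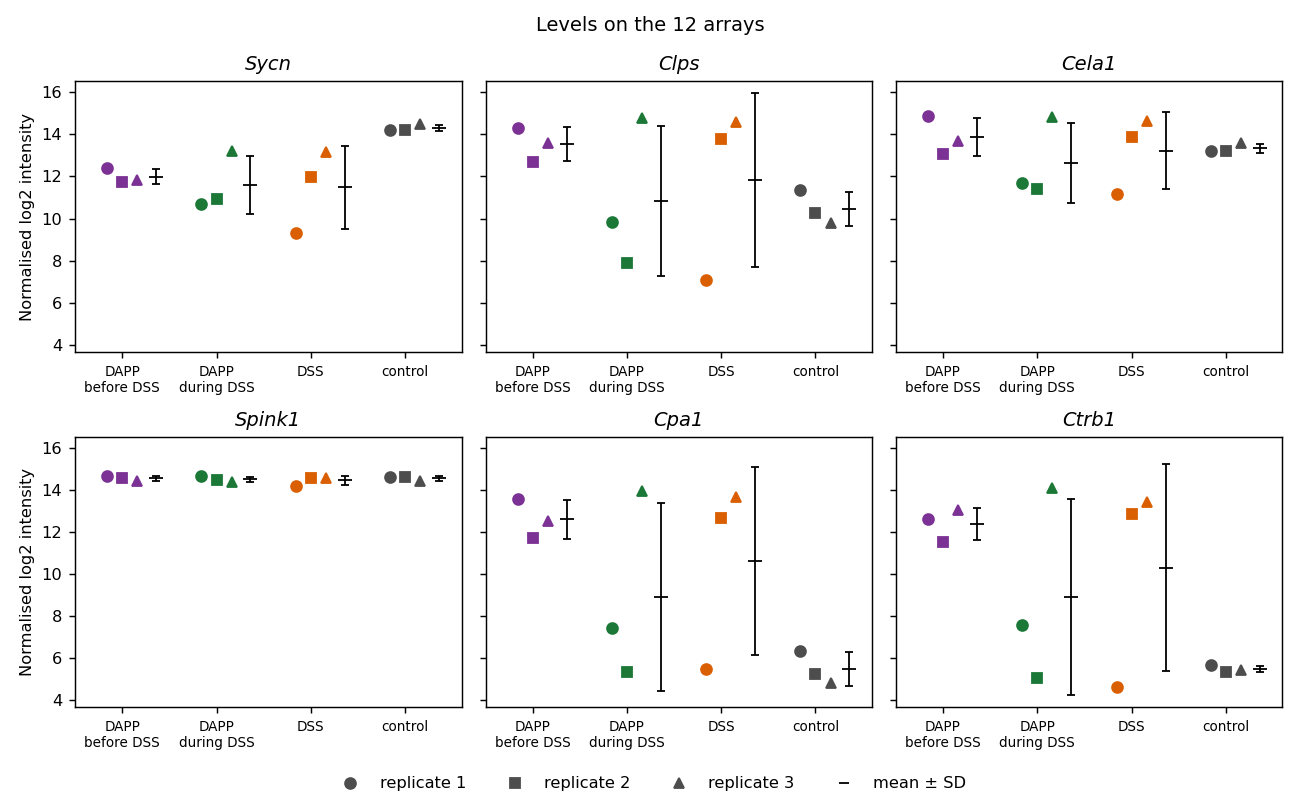
Normalised log2 intensity (vertical axis) of the 4 member genes and of Cpa1 and Ctrb1 on each of the 12 arrays, by group, with the marker shape giving the replicate and the bar the mean ± SD of 3 arrays. Sycn lies at 14.18 to 14.47 on the control arrays and at 13.19 or less on all others, Spink1 stays between 14.20 and 14.65, and Clps follows the spread of Cpa1 and Ctrb1 over the DSS-treated arrays.

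Clps spread far more widely than Sycn, and mostly within the groups. Its brighter probe measured 14.30, 12.70 and 13.58 in DAPP before DSS, 9.84, 7.88 and 14.76 in DAPP during DSS, 7.09, 13.78 and 14.60 in DSS, and 11.33, 10.25 and 9.77 in control. DAPP before DSS lay above control on all 3 arrays, whereas DSS and DAPP during DSS each held arrays above and below every control array. The means were 13.53 ± 0.80 in DAPP before DSS, 10.83 ± 3.55 in DAPP during DSS, 11.83 ± 4.12 in DSS and 10.45 ± 0.80 in control (mean ± SD of 3 arrays). Differences from control were 3.08 ± 1.86 for DAPP before DSS, 0.38 ± 1.86 for DAPP during DSS and 1.37 ± 1.86 for DSS (log2, SE). Their size and sign rested on single arrays in DSS, with 3.74 without DSS replicate 1, 0.40 without DSS replicate 2 and -0.01 without DSS replicate 3. The same held in DAPP during DSS, with 1.85 without its replicate 2 and -1.59 without its replicate 3. The dimmer probe ran the same way, at 13.18, 11.74 and 12.51 in DAPP before DSS, 8.53, 6.88 and 14.23 in DAPP during DSS, 6.42, 12.53 and 14.12 in DSS, and 10.31, 9.67 and 8.90 in control. Both Clps probes therefore placed DSS replicate 1 and DAPP during DSS replicate 2 lowest of the 12 arrays.

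Cela1 took a middle course between Sycn and Clps. It measured 14.85, 13.06 and 13.68 in DAPP before DSS, 11.67, 11.39 and 14.82 in DAPP during DSS, 11.15, 13.85 and 14.65 in DSS, and 13.19, 13.22 and 13.59 in control. Each DSS-treated group held arrays above and below every control array, with DSS replicate 1, DAPP during DSS replicates 1 and 2 and DAPP before DSS replicate 2 below. Means were 13.86 ± 0.91 in DAPP before DSS, 12.63 ± 1.90 in DAPP during DSS, 13.21 ± 1.83 in DSS and 13.34 ± 0.22 in control (mean ± SD of 3 arrays). The log2 differences from control were 0.53 ± 0.95, -0.71 ± 0.95 and -0.12 ± 0.95 (SE) for DAPP before DSS, DAPP during DSS and DSS in that order. In DSS the difference was 0.91 without DSS replicate 1, -0.84 without DSS replicate 3 and 0.01 without control replicate 3, so its sign was not settled. In DAPP during DSS it was -0.09 without replicate 2 and -1.80 without replicate 3 of that group.

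Spink1 was bright, and flat on the normalised scale. The trypsin inhibitor measured 14.65, 14.55 and 14.42 in DAPP before DSS, 14.64, 14.45 and 14.39 in DAPP during DSS, 14.20, 14.58 and 14.57 in DSS, and 14.62, 14.61 and 14.42 in control. All groups overlapped, and DSS replicate 1 was the lowest array. The means were 14.54 ± 0.12 in DAPP before DSS, 14.49 ± 0.13 in DAPP during DSS, 14.45 ± 0.22 in DSS and 14.55 ± 0.11 in control (mean ± SD of 3 arrays), with log2 differences from control of -0.01 ± 0.19, -0.06 ± 0.19 and -0.10 ± 0.19 (SE) for DAPP before DSS, DAPP during DSS and DSS. Its whole range was 0.46, against 5.17 for Sycn, 7.67 for Clps and 3.70 for Cela1. Since its probe lay within 1 log2 unit of the highest level on the arrays, as did the brightest arrays of Clps and Cela1, whether saturation narrowed these ranges was not tested. The flatness of Spink1 depended on the processing. Over 11 other settings its difference from control reached 0.63 in DAPP before DSS and 0.65 in DAPP during DSS (log2). In DSS it lay between -0.12 and -0.03 over those settings. Before normalisation the Spink1 probe read 26716 to 33462 on the DAPP arrays, against 13654 to 21541 on those of DSS and control.

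Cpa1 and Ctrb1 gave the level of ordinary acinar zymogens on the same arrays. Cpa1 measured 13.55, 11.72 and 12.53 in DAPP before DSS, 7.45, 5.34 and 13.93 in DAPP during DSS, 5.51, 12.68 and 13.67 in DSS, and 6.37, 5.24 and 4.85 in control, where it was detected on 1 of 3 arrays. Ctrb1 measured 12.60, 11.54 and 13.02 in DAPP before DSS, 7.59, 5.05 and 14.07 in DAPP during DSS, 4.66, 12.86 and 13.41 in DSS, and 5.66, 5.36 and 5.44 in control, where it was detected on 2 of 3 arrays. Both were thus high on all 3 arrays of DAPP before DSS, on DAPP during DSS replicate 3 and on DSS replicates 2 and 3, and within 1 log2 unit of the control mean on DSS replicate 1 and DAPP during DSS replicate 2. The mean of 14 acinar enzyme genes, which include Cpa1 and Ctrb1 but no member, drew the same picture: it was 13.45, 11.88 and 12.71 in DAPP before DSS, 8.41, 5.44 and 13.87 in DAPP during DSS, 5.91, 12.85 and 13.49 in DSS, and 7.36, 5.55 and 5.38 in control. Of these 14 genes, 14, 13 and 14 were detected on the arrays of DAPP before DSS, 13, 6 and 14 on those of DAPP during DSS, 6, 14 and 14 on those of DSS, and 13, 4 and 4 on those of control.

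The 2 DSS-treated arrays whose acinar enzyme mean lay inside the control range show the members without a higher acinar signal. On DSS replicate 1, relative to the control mean, Sycn differed by -5.00, Clps by -3.36, Cela1 by -2.19 and Spink1 by -0.35, against 0.02 for Cpa1 and -0.83 for Ctrb1 (log2). On DAPP during DSS replicate 2, Sycn differed by -3.35, Clps by -2.57, Cela1 by -1.94 and Spink1 by -0.10, against -0.14 for Cpa1 and -0.44 for Ctrb1. Sycn, Clps and Cela1 therefore lay below all 3 control arrays on these 2 arrays, which were picked by a measured level and so carry no test. DAPP during DSS replicate 1, with an acinar mean of 8.41, had Sycn at -3.62 and Cela1 at -1.66 from the control mean, beside -0.61 for Clps and 1.97 for Cpa1.

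Over the 12 arrays the members followed the acinar genes to different degrees. With the mean of the 12 acinar genes other than Cpa1 and Ctrb1, Pearson's r was 0.93 for Clps, 0.73 for Cela1, 0.24 for Spink1 and 0.02 for Sycn, beside 0.996 for Cpa1 and 0.987 for Ctrb1. Among the members, Clps and Cela1 correlated at 0.90, Sycn and Cela1 at 0.65 and Sycn and Clps at 0.38. These values describe 12 arrays that spread widely in acinar signal and in treatment, and no p is given. Within groups, the fitted slope on the acinar mean of 14 genes was 0.90 ± 0.04 for Clps, 0.42 ± 0.06 for Cela1, 0.36 ± 0.06 for Sycn and 0.02 ± 0.03 for Spink1 (log2 per log2, SE). Clps thus moved almost in step with the acinar genes among arrays of a group, and Sycn and Cela1 moved by less.

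**Figure D2:**
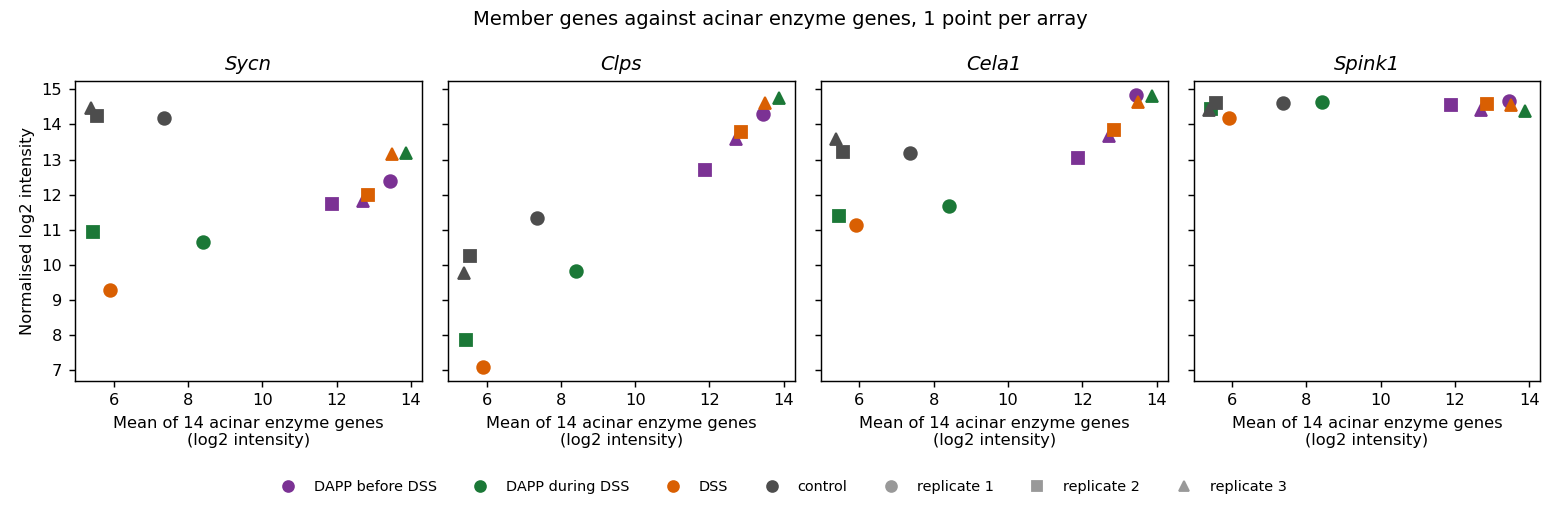
Normalised log2 intensity of each member gene (vertical axis) against the mean log2 intensity of 14 acinar enzyme genes (horizontal axis), with 1 point per array, colour for the group and marker shape for the replicate. In the panels of Sycn, Clps and Cela1, DSS replicate 1 and DAPP during DSS replicate 2 lie below the control arrays at a similar acinar mean, and Spink1 forms a level line.

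The differences from control were computed in a linear model over all 12 arrays (limma), with a call where the p adjusted by Benjamini and Hochberg over all 11933 genes was under 0.05. The 3 comparisons share the same control arrays, so their values are not independent. Without a term for the acinar signal, 11.2% of all genes were called for DAPP before DSS, 7.68% for DAPP during DSS and 6.71% for DSS. Arrays of the DSS-treated group all lay below control for 1 of 4 members in each comparison, again Sycn, beside 15.2%, 22.1% and 16.7% of all genes. They all lay above control for 1 of 4 members in DAPP before DSS (Clps, beside 14% of all genes) and for 0 of 4 in DAPP during DSS (18.8%) and in DSS (13.8%). The median log2 difference over the 4 members was 0.26 in DAPP before DSS, -0.38 in DAPP during DSS and -0.11 in DSS, beside -0.05, -0.03 and -0.04 over all genes.

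With the acinar mean added to that model as a covariate, Sycn, Clps and Cela1 lay below control in every DSS-treated group. Sycn differed from control by -4.68 ± 0.55 in DAPP before DSS, -3.82 ± 0.44 in DAPP during DSS and -4.48 ± 0.48 in DSS (log2, SE). For Clps, whose differences changed sign under this model, the values were -2.83 ± 0.37 in DAPP before DSS, -2.44 ± 0.30 in DAPP during DSS and -2.80 ± 0.33 in DSS. For Cela1 they were -2.26 ± 0.54 in DAPP before DSS, -2.04 ± 0.44 in DAPP during DSS and -2.09 ± 0.48 in DSS, and for Spink1 -0.14 ± 0.27, -0.12 ± 0.22 and -0.20 ± 0.24. Over all genes, this model called 1.71% lower in DAPP before DSS, 2.46% in DAPP during DSS and 1.74% in DSS. The members were chosen as bright on control arrays where Cpa1 and Ctrb1 were dim. That choice favours a position below control at a given acinar mean. Spink1 was chosen in the same way and lay within 1 SE of control. It hardly followed the acinar mean (slope 0.02 ± 0.03, SE), so it does not show what the choice did to Sycn, Clps and Cela1. How far the choice shaped these values was not tested, and they are a description. The median over the 4 members was -2.54 in DAPP before DSS, -2.24 in DAPP during DSS and -2.44 in DSS, beside -0.05, -0.03 and -0.04 over all genes. The covariate assumes a straight line on the log2 scale, and the control arrays cover only 5.38 to 7.36 of an acinar mean that reached 13.87, so the values at high acinar signal are extrapolated. Without DSS replicate 1, which carried a low acinar mean, the DSS values were -2.11 for Clps and -2.06 for Cela1.

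**Figure D3:**
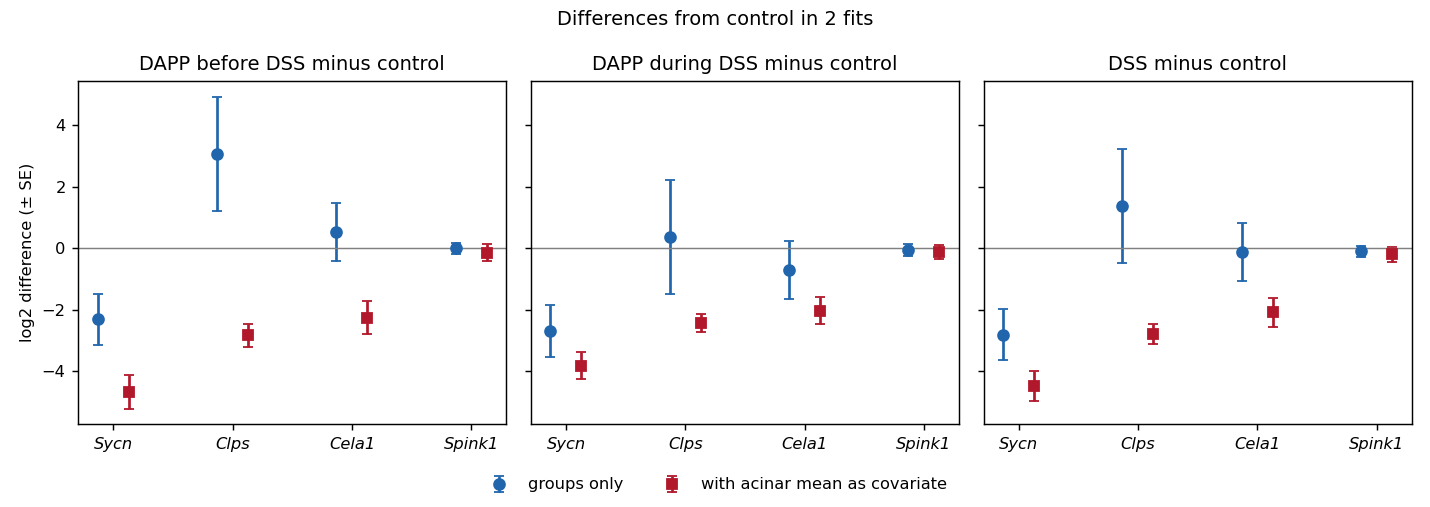
Log2 difference from control (vertical axis, ± SE) of each member gene in DAPP before DSS, DAPP during DSS and DSS, from the model with groups only (circles) and from the model with the acinar mean as a covariate (squares). With the covariate, Sycn lies at -3.82 to -4.68, Clps and Cela1 lie between -2.04 and -2.83, and Spink1 stays near 0.

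The study's design asks whether DAPP changed the response to DSS, a comparison in which the control arrays that chose the members play no part except in the shared estimate of spread. The test did not call any of the 4 members. For DAPP before DSS against DSS, the log2 difference was 0.50 for Sycn (95% interval -1.31 to 2.32, limma adjusted p = 0.900), 1.70 for Clps (-2.36 to 5.76, adjusted p = 0.862), 0.65 for Cela1 (-1.42 to 2.72, adjusted p = 0.887) and 0.10 for Spink1 (-0.31 to 0.50, adjusted p = 0.917). For DAPP during DSS against DSS, it was 0.12 for Sycn (-1.70 to 1.93), -0.999 for Clps (-5.05 to 3.06), -0.59 for Cela1 (-2.66 to 1.48) and 0.04 for Spink1 (-0.36 to 0.45), with a limma adjusted p of 0.9997 for each. The intervals for Sycn, Clps and Cela1 leave room for changes of more than 1 log2 unit either way, so these tests do not show that the groups were alike. That of Spink1 stays within 1 log2 unit in both comparisons under the main processing. Over 11 other settings the Spink1 difference reached 0.66 for DAPP before DSS against DSS and 0.69 for DAPP during DSS against DSS. Whether saturation narrowed the Spink1 intervals was not tested, so they do not show that the groups were alike either. Without DSS replicate 1, DAPP before DSS differed from DSS by -0.59 for Sycn, -0.67 for Clps and -0.39 for Cela1, so the sign of all 3 rested on that array. Without it, DAPP during DSS differed from DSS by -0.98 for Sycn, -3.37 for Clps and -1.62 for Cela1. DAPP before DSS differed from DAPP during DSS by 0.39 for Sycn (-1.43 to 2.20, limma adjusted p = 0.911), 2.70 for Clps (-1.36 to 6.75, adjusted p = 0.842), 1.23 for Cela1 (-0.84 to 3.30, adjusted p = 0.842) and 0.05 for Spink1 (-0.35 to 0.46, adjusted p = 0.949). By limma's adjusted p, 0 of 4 members and 0% of all genes were called in each of these 3 comparisons. At an unadjusted p under 0.05, limma called 0 of 4 members in each, beside 4.48% of all genes for DAPP before DSS against DSS, 2.66% for DAPP during DSS against DSS and 4.06% for DAPP before against DAPP during DSS. For no member were the arrays of DAPP before DSS and DSS, of DAPP during DSS and DSS, or of the DAPP groups without overlap, beside 6.48%, 11.3% and 7.9% of all genes. With the acinar covariate, DAPP before DSS differed from DSS by -0.19 for Sycn, -0.03 for Clps, -0.17 for Cela1 and 0.06 for Spink1, and DAPP during DSS differed from DSS by 0.66, 0.36, 0.05 and 0.08 in the same order (log2). In that model limma called 0 of 4 members and 0% of all genes by adjusted p in each of the 3 comparisons, and 0 of 4 members at an unadjusted p under 0.05, beside 3.72%, 2.05% and 2.61% of all genes.

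**Figure D4:**
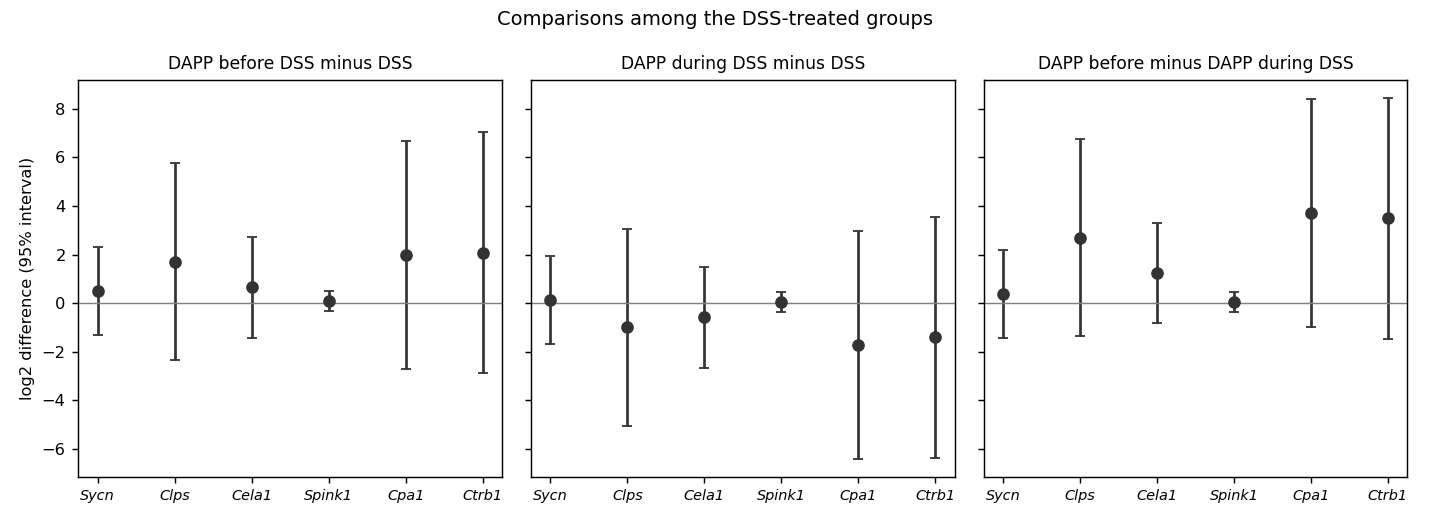
Log2 differences (points) with 95% intervals (bars) of the member genes and of Cpa1 and Ctrb1 for DAPP before DSS minus DSS, DAPP during DSS minus DSS and DAPP before minus DAPP during DSS. Every interval includes 0, and the intervals widen with the spread of each gene within groups, least for Spink1 and most for Cpa1 and Ctrb1.

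The genes whose pattern over the 12 arrays was most like each member differed between members. For Sycn they were Klk1b5, a glandular kallikrein (Pearson's r 0.93), Faah, which degrades fatty acid amides (0.92), Msantd1 (0.91), Tmem184a (0.91) and Plekhd1 (0.90), none of them in the acinar lists. Klk1b5 measured 13.42, 13.42 and 13.15 in DAPP before DSS, 12.82, 12.46 and 13.44 in DAPP during DSS, 11.46, 13.44 and 13.55 in DSS, and 14.02, 14.02 and 13.98 in control, so that its 9 DSS-treated arrays also lay below control and DSS replicate 1 was lowest. Probes of the kallikrein family can share transcripts of near-identical paralogs, so the gene behind this probe is uncertain. The 5 genes most like Clps were Tff2, a trefoil peptide of stomach mucus (0.96), Gp2, a zymogen granule membrane glycoprotein (0.94), the trypsinogen Try5 (0.94), the chymotrypsin-like Ctrl (0.94) and the lipase-related Pnliprp1 (0.94). All but Tff2 belong to the acinar lists, and Tff2 measured 12.94, 9.40 and 10.80 in DAPP before DSS, 5.95, 4.68 and 12.87 in DAPP during DSS, 5.80, 10.95 and 12.54 in DSS, and 8.00, 6.59 and 5.95 in control. Cela1 was most like Hamp2, a hepcidin gene (0.93), Clps (0.90), Tff2 (0.87), Klk1b9 (0.83) and Serpina7, a thyroxine-binding globulin (0.82). Hamp2 ran from 4.59 to 8.55, Klk1b9 from 4.56 to 7.87 and Serpina7 from 4.61 to 5.63. The lowest detected level on an array was 5.18 to 5.70, so Hamp2, Klk1b9 and Serpina7 lay near or below it on several arrays. Spink1 was most like Sod1, the cytosolic superoxide dismutase (0.85), Aldh1a1, a retinaldehyde dehydrogenase (0.84), Afap1l1 (0.84), Ctnnbip1 (0.84) and Pdxdc1 (0.83).

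**Figure D5:**
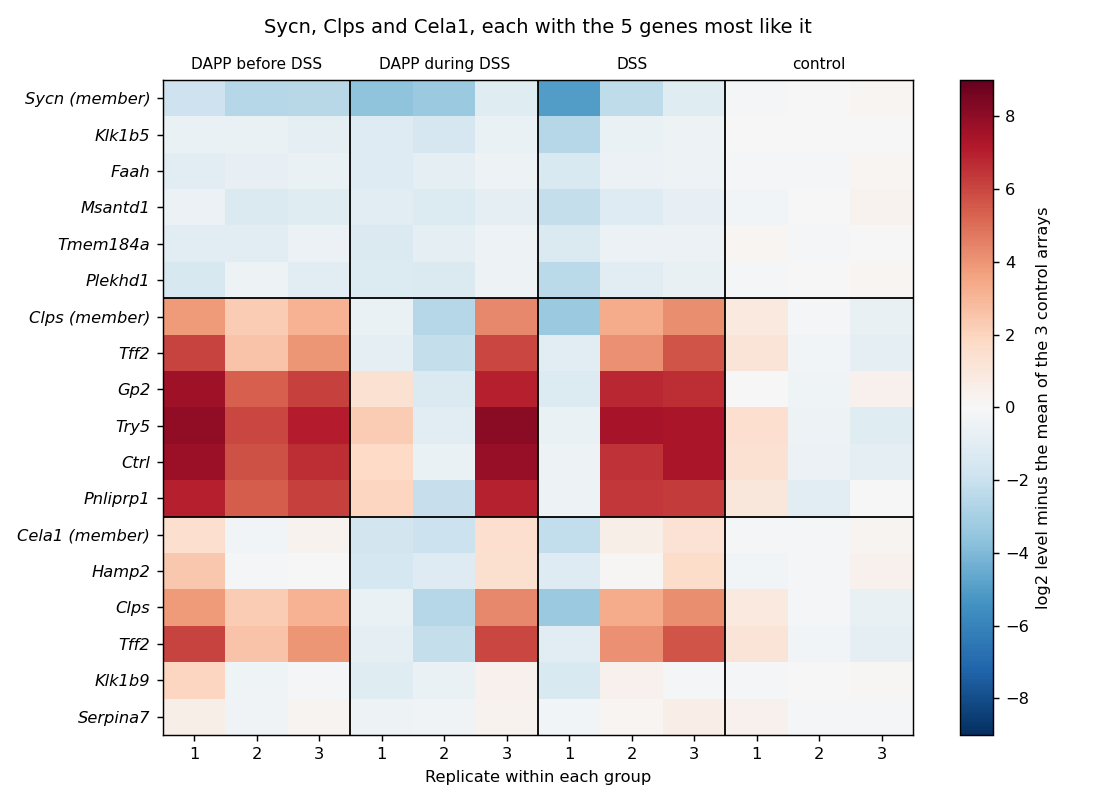
Log2 level minus the mean of the 3 control arrays (colour) for Sycn, Clps and Cela1 and the 5 genes most like each (rows), on the 12 arrays by group and replicate (columns). The Sycn block is below control on the DSS-treated arrays, lowest for Sycn on DSS replicate 1 at -5.00, and the Clps block is above control where the acinar genes are high.

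Of 14 tested acinar enzyme genes, limma called 1 of 14 higher in DAPP before DSS than in control, and 0 of 14 in DAPP during DSS and in DSS, with median log2 differences of 7.06, 3.41 and 4.997 beside -0.05, -0.03 and -0.04 over all genes. The gene called was Amy2a5, at 4.90 ± 1.45 (SE, limma adjusted p = 0.0498). Of 14 other acinar genes, 1 of 14 was called higher in DAPP before DSS, Reg1, a secreted acinar lectin, at 8.17 ± 2.24 (SE, limma adjusted p = 0.0359), and 0 of 14 in the other 2 comparisons with control. Klk1, tissue kallikrein, a relative of Klk1b5, was bright in every group: it measured 14.27, 14.16 and 13.93 in DAPP before DSS, 13.59, 13.53 and 14.13 in DAPP during DSS, 12.13, 14.24 and 13.87 in DSS, and 14.64, 14.49 and 14.23 in control. It was chosen after its values were seen, and DSS replicate 1 was again the lowest array. With the acinar covariate its difference from control was -1.41 ± 0.39 in DAPP before DSS, -1.22 ± 0.31 in DAPP during DSS and -1.81 ± 0.34 in DSS (log2, SE).

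The lists of lipases, elastases and trypsin control divided between acinar enzymes and colon genes. The 4 tested lipase genes were Pnliprp1 and Pnliprp2, relatives of pancreatic lipase, Cel, a lipase activated by bile salts, and Mgll, an intracellular monoglyceride lipase. By limma 0 of 4 were called against control in any DSS-treated group. In DSS the lowest adjusted p of the list was that of Cel, at 5.07 ± 2.32 (SE, limma adjusted p = 0.251), and Pnliprp1 differed by 4.08 ± 2.05 (SE, adjusted p = 0.302). Of 5 tested elastase genes and inhibitors, 2 of 5 rose in each DSS-treated group: Slpi, an inhibitor of neutrophil elastase made by epithelia, by 3.34 ± 0.38 in DSS (SE, limma adjusted p = 0.000266), and Mmp12, macrophage elastase, by 2.10 ± 0.48 (SE, adjusted p = 0.0210). Neutrophil genes moved with them: 9 of 10 rose in DAPP before DSS, 8 of 10 in DAPP during DSS and 8 of 10 in DSS, and their mean level was 9.99 to 10.39 in DAPP before DSS, 9.35 to 9.99 in DAPP during DSS and 9.12 to 10.54 in DSS, against 5.39 to 5.56 in control. Of 5 tested genes of trypsin activation and control, 1 of 5 was called lower in each DSS-treated group. It was Cftr, the chloride channel that flushes zymogens from pancreatic ducts and is also made by crypt cells of the colon. It differed by -1.77 in DAPP before DSS (SE 0.34, limma adjusted p = 0.00545), -1.32 in DAPP during DSS (adjusted p = 0.0323) and -1.48 in DSS (adjusted p = 0.0194). Egfr, a growth factor receptor on the same list, rose in DAPP before DSS by 1.06 ± 0.27 (SE, limma adjusted p = 0.0265), and its differences were 0.54 in DAPP during DSS (adjusted p = 0.293) and 0.48 in DSS (adjusted p = 0.380). In DAPP before DSS, Egfr measured 10.98 on replicate 1, the array that correlated least with the rest, and 9.94 and 9.90 on replicates 2 and 3. It measured 9.65, 9.91 and 9.49 in DSS and 9.37, 9.09 and 9.16 in control. Spink4, a goblet cell relative of Spink1, measured 14.35 in DSS against 14.23 in control on average (difference 0.12 ± 0.23, SE, limma adjusted p = 0.846). Prss2, a trypsinogen whose active form, trypsin, Spink1 inhibits, ran from 4.51 to 13.88 over the arrays and was detected on 8 of 12. Ctrc, which degrades trypsin, was detected on 5 of 12. Of the 3 probes of enteropeptidase (Tmprss15), which activates trypsinogen, 2 were detected on 0 of 12 arrays and 1 on 1 of 12.

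Markers of other tissues that the samples could hold were measured beside the members. The stomach list had 5 of 13 genes tested, with mean levels of 7.68 to 7.78 in DAPP before DSS, 6.40 to 8.33 in DAPP during DSS, 6.19 to 7.99 in DSS and 6.51 to 7.10 in control, and 1 of 5 was called lower in each DSS-treated group. This mean moved mainly with Tff2, the gene most like Clps. Tff2 differed from control by 4.20 in DAPP before DSS, 0.98 in DAPP during DSS and 2.92 in DSS (log2, SE 2.01). In DSS the rest of the list ran from -0.93 (Gkn3) to 0.62 (Cblif). Of the endocrine pancreas list, 4 of 8 were tested, with 0 of 4 called against control and mean levels of 8.86 to 9.18 in DAPP before DSS, 8.54 to 9.41 in DAPP during DSS, 8.56 to 9.14 in DSS and 8.42 to 8.88 in control. They were Gcg, Sst, Ppy and Pdx1, at 11.18, 9.73, 8.03 and 5.52 on average in control, so Gcg and Sst carried the mean. Whether Gcg and Sst came from pancreas or from the colon itself was not tested. Of 10 tested small intestine genes, 1 of 10 was lower and 2 of 10 were higher in DAPP before DSS, 1 of 10 was lower and 1 of 10 higher in DAPP during DSS, and 2 of 10 were lower and 1 of 10 higher in DSS. Of 5 tested fat and serosa genes, 1 of 5 was lower in DSS and 0 of 5 were called in the DAPP groups. Ins2 and Iapp, defining markers of beta cells, were on the array and did not pass the filter on low values. Of 6 general epithelial genes, 0 of 6 were called against control in any group, and of 12 goblet cell genes, 1 of 12 was called lower in DAPP before DSS, 0 of 12 in DAPP during DSS and 1 of 12 in DSS. Of 15 absorptive colonocyte genes, 2 of 15 were lower in DAPP before DSS, 1 of 15 in DAPP during DSS and 1 of 15 in DSS, and 1 of 15 was higher in DAPP before DSS and in DSS. The mean level of these genes nevertheless lay below control on every DSS-treated array, as Sycn did. It was 10.48 to 11.92 in DAPP before DSS, 11.32 to 11.73 in DAPP during DSS and 11.06 to 11.85 in DSS, against 11.98 to 12.15 in control. Of 8 granule docking and fusion genes, which serve the granules that carry Sycn, 1 of 8 was lower in DAPP before DSS and 0 of 8 were called in DAPP during DSS and in DSS. The part of these tissues in the levels of the members was not tested.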

How the data were processed

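Total RNA of 12 colon samples was hybridised to Illumina bead arrays. The deposited table holds, per the file headers, the unnormalised signal intensity of 45281 probes and a detection p-value for each, made in GenomeStudio per the submitters' processing notes (the sources used here give neither its version nor the background handling). The authors' processed values are intensities on a linear scale with ranks identical to the unnormalised ones, which was inferred from the values, and served as an alternative.

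Intensities were corrected and normalised with neqc of limma 3.58.1 in R 4.3.3 (offset 16, log2). Probes with a detection p under 0.05 on at least 3 of 12 arrays were kept (22359), and each gene took its kept probe with the highest mean (11933 genes). Symbols came from the platform annotation, updated through Entrez identifiers. A model with 4 groups (lmFit, eBayes, 8 residual degrees of freedom) gave all 6 comparisons, with Benjamini-Hochberg adjustment over 11933 genes. A further model added the mean of 14 acinar enzyme genes. Checks on simulated data recovered known changes. In the check of the model with the covariate, the noise was capped below the residual SD of Sycn (0.57) and Cela1 (0.56). That check therefore does not show recovery at the spread of Sycn and Cela1. Array number limits the precision.

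The members, the 16 gene lists and the tests were chosen with earlier results of these data known. Named genes are the members, Cpa1 and Ctrb1, the 5 tested genes with the highest Pearson correlation to each member, up to 4 genes with the lowest adjusted p in each list described, and the partners Pnlip, Prss2, Ctrc, Tmprss15 and F2rl1, of which no probe was matched to Pnlip or F2rl1. Amy2a5 on the control arrays, Klk1 and Spink4 were added after their values were seen. Alternatives were the offset, the filter, the probe chosen, the normalisation, the authors' values, the samples fitted, array weights, a replicate block and leaving out each array. Deviations of same-numbered samples from their group means correlated at -0.321 to 0.397, over 0.1 in 3 of 18 pairs. Those 3 pairs joined the replicate 3 arrays of the DSS-treated groups. The values were 0.397 for DAPP before DSS with DSS, 0.346 for DAPP during DSS with DSS and 0.111 between the DAPP groups. Why these arrays deviated together was not tested. The main model did not use the numbers as pairs, and the replicate block is the alternative that did.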

Additional observations from a re-analysis of the deposited data

How the results depend on the processing

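The count of the 4 members that limma called against control differed between settings, and nothing is read from it because the control level chose the members. It was 0 in each comparison as reported. With only the groups compared in the fit, 2 were called for DAPP before DSS (Sycn and Clps, beside 746 of all 11933 genes) and 1 for DAPP during DSS (Sycn, beside 2352). With array weights 1 was called for DAPP during DSS, beside 3392 of all genes. With the replicate number as a block, 1 was called for DAPP during DSS (beside 895) and 1 for DSS (beside 812), again Sycn, and leaving out 1 array gave 0 to 1 in each comparison. Sycn was called for DSS without replicate 3 of DSS or of DAPP during DSS, for DAPP before DSS without DSS replicate 1, and for DAPP during DSS without replicates 1 or 3 of DSS or replicate 3 of its own group. The cause was not tested. Sycn kept its sign in all 23 settings for each comparison, with a range of -3.66 to -1.72 in DSS when 1 array was left out.

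With the acinar covariate the count was 3 in each comparison, beside 670, 792 and 599 of all genes for DAPP before DSS, DAPP during DSS and DSS. The choice of members bright in control where acinar enzymes are dim favours such calls, so nothing is read from the count. The covariate turned Clps to -2.83 in DAPP before DSS, -2.44 in DAPP during DSS and -2.80 in DSS, and Cela1 to -2.26 in DAPP before DSS. With the covariate, leaving out 1 array gave 2 to 3 members for DAPP before DSS, 2 to 3 for DAPP during DSS and 1 to 3 for DSS, and Sycn differed from control in DSS by -4.84 to -3.69. Without DSS replicate 1, Clps in DSS was -2.11 and Cela1 -2.06, and 80 genes in all were called, against 599 with it. Cela1 was the member lost in all other such cases, among them each comparison without control replicate 2 or 3. The covariate alternatives that used other genes, other values or left out arrays were added after seeing the data.

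Among the DSS-treated groups, 0 of 4 members were called by limma in all 23 settings of each comparison. Counts over all genes for DSS against control ran from 429 (without DSS replicate 1) to 1523 (without replicate 1 of DAPP before DSS) over the settings, around 801. Those for DAPP before DSS ran from 746 to 1815, around 1338, and those for DAPP during DSS from 443 to 3392, around 917.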
